A study of Saccharomyces cerevisiae with 17 samples.

Results

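The genes described here encode the 3 filament systems of the yeast cytoskeleton, actin, septins and microtubules. They are 42 genes chosen by symbol: actin and the proteins that cap, bundle, sever and buffer it, the Arp2/3 complex and its activators, the formins, the myosins, the septins, the tubulins, the microtubule motors and the proteins of microtubule plus ends. Each was read from the probe set annotated to its symbol, and all 42 were measured, out of 5449 genes on the array with a level to test. None had a mean below the background level of 4.56 log2, and only 58 of all 5449 genes did. The lowest mean of a member was 6.75.

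Cells of Saccharomyces cerevisiae were kept in saline until medium was injected, 5 days after launch. On the International Space Station they then had 72 h of growth at 23 °C, and their RNA was hybridised to 17 Affymetrix Yeast Genome 2.0 arrays. Ground cultures were grown later, in an incubator that replayed the temperatures logged in flight. The groups were the strain overexpressing FLO1 (a cell-surface lectin that binds cells into flocs) in microgravity (2 arrays) and on the ground (3 arrays), the strain labelled BY4742::FLO8 (FLO8 is a transcription factor of flocculin genes) in microgravity and on the ground (3 arrays each), and the wild type in microgravity and on the ground (3 arrays each). All 3 strains are BY4742, a haploid laboratory strain of mating type alpha, and are called FLO1, FLO8 and WT below. The labels do not describe how FLO1 was overexpressed or how FLO8 was altered, nor whether replicates are separate cultures. P-values therefore measure the spread between these samples, which may be technical. The ground cultures followed the flight in time, so time of growth, any batch that goes with it and microgravity itself cannot be told apart.

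In budding yeast, actin forms cortical patches, built by the Arp2/3 complex where endocytosis takes place, and cables, built by formins, along which type V myosins carry cargo into the bud. Septins assemble into a ring at the bud neck that scaffolds cytokinesis. Microtubules grow from gamma-tubulin complexes at the spindle poles, form the mitotic spindle and, through motors and plus-end proteins, place the nucleus at the bud neck.

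Levels are on the log2 scale of the deposited table. In the FLO1 strain the FLO1 level averaged 12.54 in microgravity and 12.70 at ground, against 8.46 and 8.47 in WT, in group means. In the FLO8 strain the FLO8 level was below that of WT, at 8.05 in microgravity and 7.76 on the ground against 9.16 and 9.30. The flocculin gene FLO11 was above WT there, at 12.42 and 12.17 against 8.89 and 8.57. FLO1 also read higher in the FLO8 strain than in WT, at 9.72 and 9.94. Why the FLO8 level was lower in this strain was not tested. The 5 alpha-specific genes read lay between 9.57 and 12.5 in all group means. All 7 a-specific genes also read above background, with MFA1 between 9.43 and 10.05 and MFA2 between 8.46 and 9.83, so these levels do not settle the mating type and it is taken from the strain name. Correlations between arrays over genes ran from 0.882 to 0.996. The difference between 3′ and 5′ probe sets of control genes, a measure of RNA integrity that grows as RNA is degraded, was 1.34 ± 0.11 in FLO1 microgravity against 1.08 ± 0.07 on the ground, 1.19 ± 0.06 against 1.14 ± 0.06 in FLO8, and 1.18 ± 0.02 against 1.09 ± 0.05 in WT (log2, SD). The 4 arrays WT microgravity 3, FLO1 microgravity 1 and FLO8 microgravity 2 and 3 had more genes over 0.5 log2 away from the ground mean of their strain than the other flight arrays, and average flight differences that turn sign without them are given both ways.

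Averaged over the 3 strains, STU2 rose in microgravity and TUB4 fell, and no other member passed the test. STU2 encodes the microtubule polymerase of plus ends and spindle poles, and TUB4 encodes gamma-tubulin, from which microtubules are nucleated. These 2 of 42 members (4.76%) stand beside 235 of 5449 genes (4.31%; 2.31% higher and 2.0% lower) called in the same comparison at an adjusted p under 0.05 with limma, so the share of members called was near that of all genes. The median difference was 0.030 log2 for the members and 0.030 for all genes, and with 1 array left out at a time the members' median ran from −0.0246 to 0.122. A further 10 members had an unadjusted p under 0.05 in limma without passing, which makes 12 of 42, against 21.7% of all genes.

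STU2 read 9.03 and 8.52 on the FLO1 microgravity arrays, against 7.75, 8.22 and 8.07 on the FLO1 ground arrays. In the FLO8 strain its levels were 8.71, 8.73 and 8.39 in microgravity and 8.23, 8.37 and 8.27 on the ground. In WT they were 8.25, 8.53 and 8.68 in microgravity and 8.26, 8.13 and 7.77 on the ground. Of the flight arrays, 7 of 8 lay above the whole range of the 9 ground arrays (7.75 to 8.37), with WT microgravity 1 the exception. Flight and ground did not overlap in FLO1 and FLO8 and overlapped in WT by that array. The average difference was 0.50 log2 (SE 0.11, 95% confidence interval 0.26 to 0.75), or 1.42-fold higher in microgravity, with an adjusted p of 0.0299 in limma. Within strains the differences were 0.76 in FLO1, 0.32 in FLO8 and 0.43 in WT, and none of these passed on its own (limma adjusted p 0.179, 0.775 and 0.477). An exact permutation of the microgravity and ground labels within strains (two-sided, 4000 assignments, smallest possible p 0.00025) gave p = 0.0005 for STU2, unadjusted. In bulk RNA, a changed number of cells making a transcript and a changed amount per cell cannot be told apart.

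TUB4 read 7.97 and 8.38 in FLO1 microgravity, against 8.57, 8.75 and 8.88 on the FLO1 ground arrays. In FLO8 it read 8.59, 8.75 and 8.18 in microgravity, against 8.98, 9.06 and 8.89 on the ground. In WT it read 8.39, 8.17 and 8.45 in microgravity, against 8.62, 8.57 and 8.27 on the ground. Flight arrays lay below all ground arrays of their strain in FLO1 and FLO8, and WT ground 3 lay among the WT flight arrays. On average TUB4 fell by 0.39 on the log2 scale (SE 0.10, 95% confidence interval −0.62 to −0.17), which is 1.31-fold lower in microgravity, with a limma adjusted p of 0.0495. The strain differences were −0.56 in FLO1, −0.47 in FLO8 and −0.15 in WT. The exact permutation within strains gave p = 0.00175, unadjusted. Permutation was run only for ACT1 and for STU2, TUB4 and LAS17, the 3 members with the lowest limma p in this same comparison. The permutation p-values of these 3 genes are therefore no separate support. The permutation also takes the spread as equal in flight and on the ground.

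Both calls sit close to the threshold. With the 3′ to 5′ difference of each array as a covariate, STU2 was 0.41 higher and TUB4 was 0.29 lower on the log2 scale (−0.29). The limma adjusted p-values were 0.628 and 0.692, and 0 of 5449 genes passed. In FLO1 and WT every flight array had a larger 3′ to 5′ difference than all ground arrays of its strain, while FLO8 overlapped. The covariate and microgravity can therefore not be fully told apart in this fit. With 1 array left out at a time, STU2 passed in 9 of 17 fits (0.42 to 0.59) and TUB4 in 3 of 17 (−0.46 to −0.32). Without the 4 arrays that stand apart, STU2 was at 0.42 and TUB4 at −0.32, both nearer to no difference than with all arrays. That leaves 1 flight array in FLO1 and in FLO8. The arrays left out were picked for their distance from the ground means, so this fit is no independent check.

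**Figure D1:**
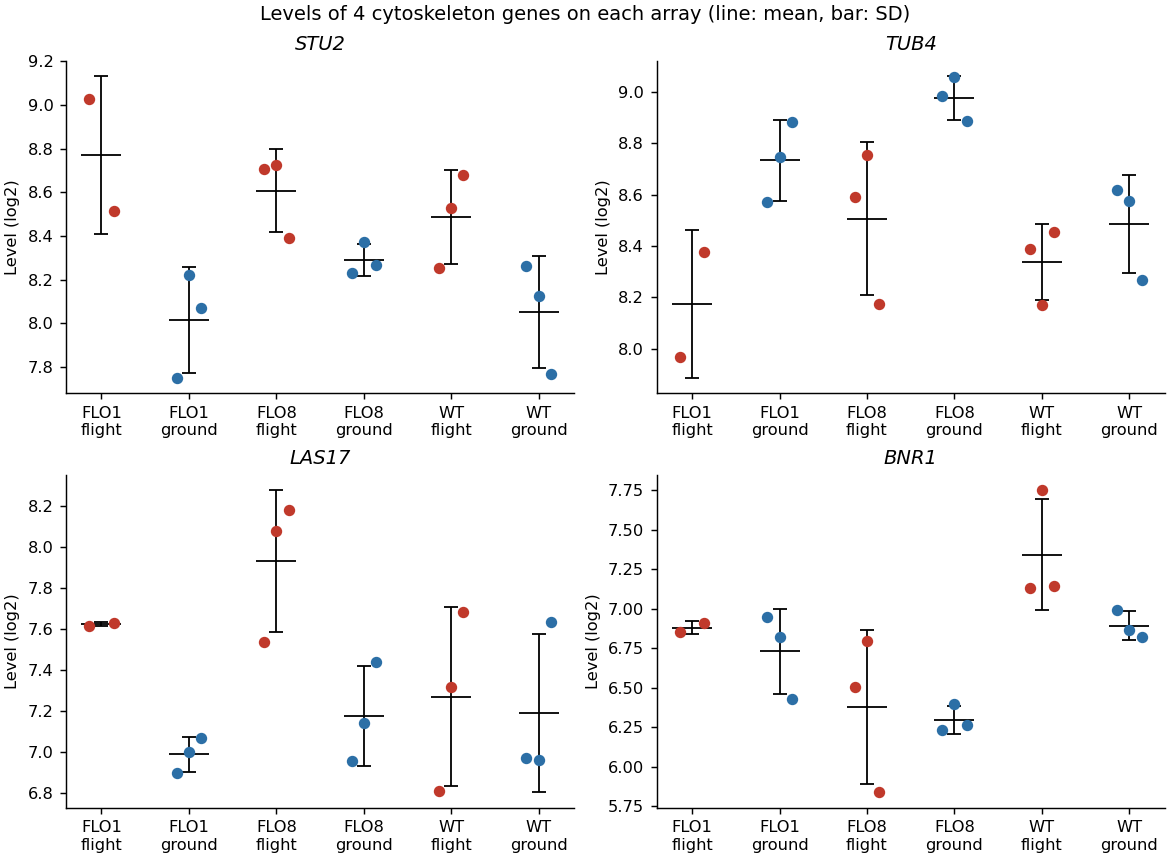
Levels (log2) of STU2, TUB4, LAS17 and BNR1 on each of the 17 arrays, with microgravity in red and ground in blue for each strain; the line is the group mean and the bar the SD (n = 2 or 3). STU2 sits higher and TUB4 lower in flight in the means of all 3 strains, and BNR1 is lowest in both FLO8 groups.

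Among actin and its filament proteins, 0 of 8 members passed and 4 of 8 average flight differences were above 0. ACT1, which encodes actin, read 13.90 and 14.17 in FLO1 microgravity and 14.13, 14.21 and 14.20 on the FLO1 ground arrays. Its FLO8 levels were 14.26, 14.10 and 14.36 in microgravity and 14.07, 14.17 and 14.28 on the ground. In WT they were 13.87, 14.14 and 13.82 in microgravity and 14.10, 13.91 and 14.19 on the ground. Flight and ground overlapped in all 3 strains. The average difference of ACT1 was −0.07 log2 with a 95% confidence interval of −0.25 to 0.11 (limma adjusted p = 0.662; exact permutation p = 0.304), and it was 0.0016 without the 4 arrays that stand apart.

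The array reads the ACT1 transcript with 6 further control probe sets placed at its 5′ end, middle and 3′ end. In FLO1 the flight difference was −0.34 on the control 5′ set and −0.45 on the older 5′ set, against −0.13 and −0.16 on the 3′ sets. In FLO8 all 7 probe sets gave between 0.05 and 0.07. In WT the 5′ sets gave −0.18 and −0.19, and the 3′ sets −0.11 and −0.06. The 5′ sets therefore read lower differences than the 3′ sets in FLO1 and WT but not in FLO8. The 3′ to 5′ difference over control genes, which includes the ACT1 control sets, was 1.34 in microgravity against 1.08 on the ground in FLO1. It was 1.18 against 1.09 in WT and 1.19 against 1.14 in FLO8, so the shifts of WT and FLO8 were close. A part of RNA integrity in the ACT1 values was not tested.

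**Figure D2:**
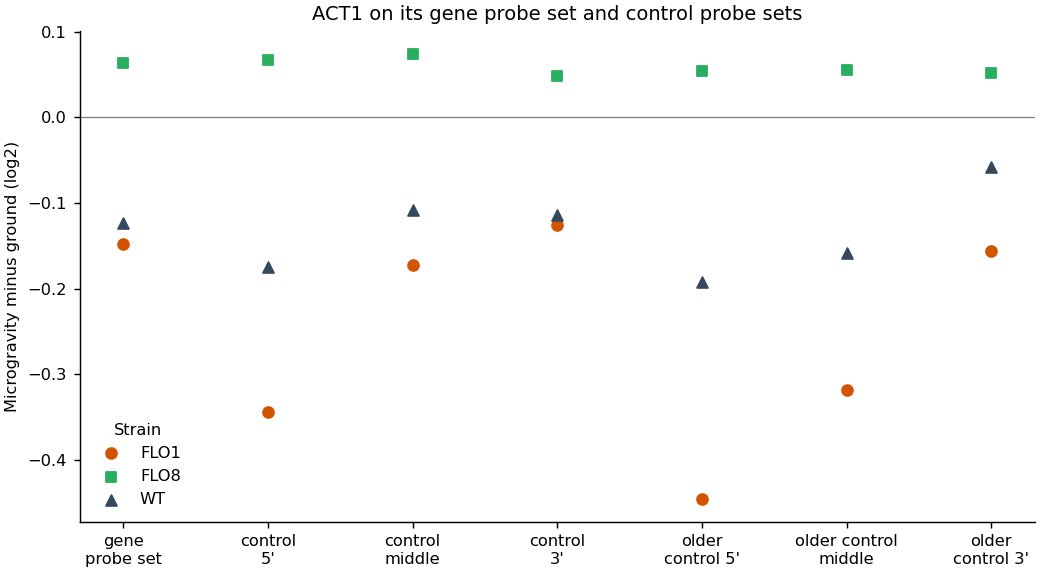
Mean microgravity minus ground difference (log2) of ACT1 on its gene probe set and 6 control probe sets, by strain (FLO1 circles, FLO8 squares, WT triangles). FLO8 stays between 0.05 and 0.07 on every set, while FLO1 is at −0.34 and −0.45 on the 5′ sets and at −0.13 and −0.16 on the 3′ sets.

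CAP1 and CAP2, the alpha and beta subunits of the capping protein that blocks the fast-growing ends of actin filaments, both had differences above 0 without passing. CAP1 averaged 0.31 (SE 0.12, limma adjusted p = 0.164) and CAP2 averaged 0.20 (SE 0.08, limma adjusted p = 0.186). CAP1 stood out in FLO8, where it read 10.89, 11.22 and 11.23 in microgravity against 10.27, 10.58 and 10.79 on the ground, with no overlap and a difference of 0.56. In FLO1, by contrast, CAP1 read 10.35 and 10.86 in microgravity, on either side of the ground arrays at 10.56, 10.69 and 10.47. WT levels of CAP1 overlapped, at 10.57, 11.00 and 11.33 in microgravity and 10.68, 10.43 and 10.75 on the ground.

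COF1, which encodes the severing protein cofilin, and PFY1, which encodes the monomer-binding protein profilin, gave average differences of 0.01 (95% confidence interval −0.15 to 0.18) and −0.07 (−0.29 to 0.15), and 0.04 and −0.16 without the 4 arrays. SAC6, the filament bundler fimbrin, and the tropomyosins TPM1 and TPM2, which coat cables, had wide intervals that include 0. Their average differences were −0.32 for SAC6, −0.16 for TPM1 and 0.13 for TPM2, with SEs of 0.24, 0.21 and 0.23. Without the 4 arrays that stand apart all 3 turned sign, to 0.22, 0.12 and −0.37. The 2 tropomyosins are related in sequence, as are the pairs TUB1 and TUB3, MYO3 and MYO5, MYO2 and MYO4, BNI1 and BNR1, and CIN8 and KIP1. Whether the signal of 1 gene includes some of the other was not tested, since no probe sequences were available.

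In the Arp2/3 group 0 of 9 members passed, and LAS17 came nearest. LAS17 encodes the yeast homologue of WASP, which switches on Arp2/3 at endocytic sites. Its levels in FLO1 were 7.62 and 7.63 in microgravity and 6.90, 6.996 and 7.07 on the ground. In FLO8 they were 7.54, 8.08 and 8.18 in microgravity and 6.95, 7.14 and 7.44 on the ground. The 2 engineered strains thus showed flight arrays above all ground arrays, whereas WT levels overlapped, with 6.81, 7.32 and 7.68 in microgravity and 6.97, 6.96 and 7.63 on the ground. The average difference of LAS17 was 0.49 (SE 0.15, limma adjusted p = 0.0727; exact permutation p = 0.0125), and within strains it was 0.64 in FLO1, 0.76 in FLO8 and 0.08 in WT. Without the 4 arrays the average was 0.29 (limma adjusted p = 0.206). The flight difference in FLO8 exceeded that in WT by 0.67 (SE 0.34), which did not pass (limma adjusted p = 0.998).

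No subunit of the Arp2/3 complex passed among the 7 measured. ARC18, ARC19 and ARC35 averaged 0.23, 0.36 and 0.20 above ground, and ARP2, ARP3, ARC15 and ARC40 lay between −0.04 and 0.06. Without the 4 arrays the order changed: ARC19 was at −0.0023, ARC18 at 0.18 and ARC35 at 0.24, and ARP2, ARC15 and ARC40 were at 0.35, 0.24 and 0.28, with ARP3 at 0.04. ABP1, a patch protein that binds filaments and activates Arp2/3, averaged −0.16 with an SE of 0.25, and 0.16 without the 4 arrays. In FLO8 8 of these 9 genes had differences above 0, in FLO1 3 of 9 and in WT 7 of 9. The shares of all genes above 0 were 51.8%, 51.4% and 58.9%. On FLO1 microgravity 2 alone, all 9 lay above the FLO1 ground mean, from 0.05 (ARC15) to 0.64 (LAS17), so the low FLO1 count rests on FLO1 microgravity 1.

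Both formins had positive averages that did not pass, 0.29 for BNI1 (SE 0.11, limma adjusted p = 0.128) and 0.23 for BNR1 (SE 0.14, limma adjusted p = 0.359). Without the 4 arrays they were at 0.16 and 0.31. BNI1 builds cables from the bud tip and BNR1 from the bud neck. BNI1 read 10.29 and 9.87 in FLO1 microgravity against 9.67, 9.63 and 9.62 on the ground, and 9.92, 9.97 and 10.38 in WT microgravity against 9.81, 9.88 and 9.74 on the ground, without overlap in either strain. In FLO8 its flight levels of 9.88, 10.19 and 9.64 overlapped the ground levels of 9.97, 9.65 and 9.63.

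Of the 5 myosins, 0 passed, and MYO2, MYO3 and MYO5 had unadjusted p-values under 0.05 in limma. MYO2, the type V motor that carries vesicles and organelles into the bud, averaged 0.27 above ground, and 0.20 without the 4 arrays. Its relative MYO4, which carries messenger RNA into the bud, averaged −0.23, and 0.04 without them. MYO3 and MYO5 are the type I myosins of endocytic patches and averaged 0.28 and 0.21, and without them 0.58 and 0.20. MYO1, the type II myosin of the contractile ring, averaged −0.0046 (SE 0.11), and −0.03 without the 4 arrays.

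MYO3 read 10.32, 10.58 and 9.88 in WT microgravity against 9.84, 9.72 and 9.78 on the ground, which did not overlap. In FLO1 it read 10.00 and 10.51 against 10.04, 10.17 and 10.10 on the ground, and in FLO8 10.81, 10.06 and 10.17 against 9.98, 10.15 and 10.32. Both engineered strains overlapped. The WT difference of MYO3 was 0.48 (SE 0.22, limma adjusted p = 0.478), and without the 4 arrays it was 0.67 and passed (limma adjusted p = 0.0114).

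MYO5 did not overlap in FLO1, at 8.70 and 8.67 in microgravity and 8.25, 8.28 and 8.21 on the ground. Its difference there was 0.44 (SE 0.16, limma adjusted p = 0.266), against 0.14 in FLO8 and 0.04 in WT. MYO5 read 8.72, 8.91 and 8.39 in FLO8 microgravity against 8.51, 8.58 and 8.51 on the ground. WT levels were 8.15, 8.53 and 8.47 in microgravity and 8.31, 8.35 and 8.38 on the ground, so both of these strains overlapped.

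The septin genes CDC3, CDC10, CDC11, CDC12 and SHS1 encode the subunits of the neck ring. None of the 5 passed, and CDC3 had the lowest p, with an average of −0.36 (SE 0.16, limma adjusted p = 0.211), and −0.10 without the 4 arrays. CDC3 read 7.86 and 9.31 in FLO1 microgravity against 9.40, 9.39 and 9.27 on the ground, a difference of −0.77 in which the second flight array lay inside the ground range. In FLO8 it read 9.39, 9.39 and 9.25 against 9.22, 9.21 and 9.47 on the ground, and in WT 8.72, 9.28 and 8.97 against 9.53, 9.20 and 9.32. These groups overlapped in all 3 strains. The other 4 septins averaged between −0.08 and 0.10, and without the 4 arrays between −0.23 (CDC12) and 0.22 (CDC10).

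Other than TUB4, 0 of 3 tubulin genes passed. The alpha-tubulin genes TUB1 and TUB3 averaged 0.16 (SE 0.08) and 0.25 (SE 0.14), and the beta-tubulin gene TUB2 averaged −0.09 (SE 0.11). Without the 4 arrays TUB3 was at 0.42 and TUB2 at −0.02. TUB1, the main alpha-tubulin gene, read 12.20, 12.45 and 12.32 in FLO8 microgravity against 11.84, 12.04 and 12.04 on the ground, without overlap and with a difference of 0.35 (limma adjusted p = 0.744). FLO1 levels of TUB1 were 11.87 and 12.06 in microgravity and 11.95, 12.02 and 11.92 on the ground. WT levels were 11.94, 12.05 and 12.18 in microgravity and 11.98, 11.82 and 11.98 on the ground. TUB1 thus overlapped in FLO1 and WT, and TUB3, the minor alpha-tubulin gene, overlapped in FLO8 and WT but not in FLO1, at 10.48 and 10.50 in microgravity against 10.37, 10.37 and 10.23 on the ground.

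Motor genes had 0 of 6 calls and 3 of 6 averages above 0. KIP3, a motor that shortens microtubules at their plus ends, averaged 0.24 (SE 0.10, limma adjusted p = 0.192), and 7 of 8 flight arrays lay above all 9 ground arrays. It read 9.86 and 9.84 in FLO1 microgravity against 9.58, 9.73 and 9.60 on the ground, and 9.83, 9.86 and 10.27 in WT microgravity against 9.68, 9.51 and 9.56. In FLO8 2 of 3 flight arrays were high, at 9.85 and 9.87, and the third read 9.29, below the ground arrays at 9.52, 9.53 and 9.69. Without FLO8 microgravity 3 and the other 3 arrays that stand apart, KIP3 averaged 0.25 and passed (limma adjusted p = 0.0348).

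KIP2, a motor that carries plus-end proteins outward along microtubules, had a positive flight difference in WT and negative ones in FLO1 and FLO8. It read 10.15, 9.45 and 9.37 in WT microgravity against 9.13, 9.27 and 8.82 on the ground, without overlap and with a difference of 0.58. In FLO1 it read 8.29 and 9.57 against 9.24, 9.25 and 9.35 on the ground, a difference of −0.35. In FLO8 it read 9.77, 8.86 and 8.81 against 9.47, 9.51 and 9.08, a difference of −0.20. The flight difference was 0.93 lower in FLO1 than in WT (−0.93, SE 0.48) and 0.78 lower in FLO8 than in WT (−0.78, SE 0.45), and neither passed (limma adjusted p = 0.994 and 0.998). The flight levels below the ground range were on FLO1 microgravity 1 and FLO8 microgravity 2 and 3, and without the 4 arrays the differences were 0.30 in FLO1, 0.42 in FLO8 and 0.72 in WT.

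CIN8 and KIP1, the spindle motors that push the poles apart, averaged −0.04 and −0.06, and −0.01 and −0.08 without the 4 arrays. DYN1, the heavy chain of dynein that pulls the nucleus to the bud neck, and KAR3, a motor that walks to minus ends, had the widest spreads among the motors, with average differences of −0.40 (SE 0.29) and 0.32 (SE 0.23), and of 0.30 and −0.03 without the 4 arrays. BIK1 and BIM1, which also bind plus ends, averaged −0.01 (95% confidence interval −0.25 to 0.22) and −0.03 (−0.23 to 0.17), and 0.18 and −0.12 without the 4 arrays, so among the 3 plus-end genes the call was on STU2.

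**Figure D3:**
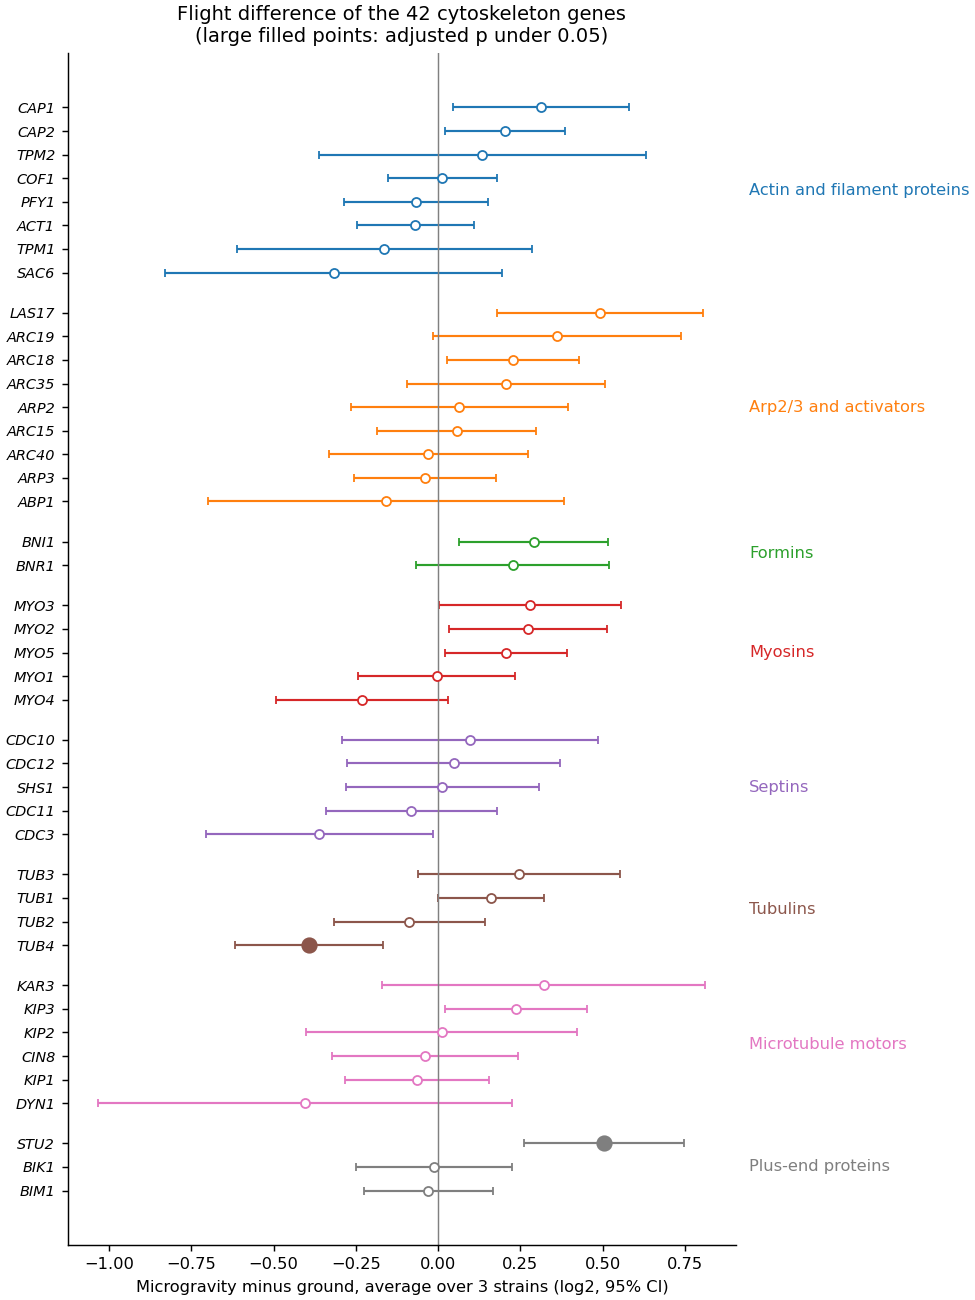
Average microgravity minus ground difference over the 3 strains (log2, horizontal axis) with its 95% confidence interval for all 42 genes, grouped by role and ordered by difference within a role. The large filled points, STU2 at 0.50 and TUB4 at −0.39, have a limma adjusted p under 0.05.

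Within single strains 0 of 42 members passed in limma in any of the 3 flight comparisons, where 0.0367% of genes passed in FLO1, 0.0% in FLO8 and 0.147% in WT. At an unadjusted p under 0.05 there were 7 members in FLO1 (13.1% of genes), 4 in FLO8 (6.55%) and 3 in WT (10.0%). Without FLO1 microgravity 2, which leaves array 1 alone there with a spread borrowed from the remaining groups, 4 of 42 members passed in FLO1 (9.52%), against 9.36% of genes: CDC3, CDC11, MYO2 and STU2. Medians over the 42 genes were −0.069 in FLO1, 0.117 in FLO8 and 0.076 in WT, beside 0.012, 0.013 and 0.060 over all genes. FLO8 had 32 of 42 members above 0 (76.2%), against 51.8% of all genes, and the FLO1 median was 0.175 without FLO1 microgravity 1.

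Counting members whose flight arrays all lay to 1 side of the ground arrays gave 9 higher and 4 lower in FLO1, where 22.9% and 18.5% of genes did so. In FLO8 there were 5 higher and 1 lower, against 6.57% and 4.39% of genes, and in WT 6 higher and 0 lower, against 10.5% and 5.51%. The FLO8 genes were ARC35, CAP1, LAS17, STU2 and TUB1 on the higher side and TUB4 on the lower, and those of WT were BNI1, BNR1, KIP2, KIP3, MYO2 and MYO3. Flight means exceeded ground means in all 3 strains for 15 members (35.7%), against 27.2% of genes, and lay below them in all 3 strains for 5 members (11.9%), against 19.9%.

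Related cytoskeletal genes outside the 42, in 6 lists of regulators and partners, gave 2 calls among 136 measured genes, both higher and both in the list of polarity and formin regulators. That is 1.47% of these genes, beside 4.31% of all genes called in the comparison. CDC24, the exchange factor that activates the polarity GTPase Cdc42, rose by 0.44 on average (SE 0.12, limma adjusted p = 0.0487). It read 9.73 and 9.58 in FLO1 microgravity against 9.11, 8.96 and 9.02 on the ground, and 9.48, 9.48 and 10.04 in WT microgravity against 9.26, 9.22 and 9.18. In FLO8 the CDC24 levels of 9.32, 9.87 and 9.05 in microgravity overlapped those of 9.14, 9.15 and 9.23 on the ground. CDC24 separated in FLO1 and WT.

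MSB4, which encodes a GTPase-activating protein of secretion at bud tips, rose by 0.39 (SE 0.10, limma adjusted p = 0.0495). It read 8.94 and 8.84 in FLO1 microgravity against 8.42, 8.37 and 8.38 on the ground, and 8.71, 8.87 and 9.00 in WT microgravity against 8.33, 8.58 and 8.28. FLO8 levels of MSB4 were 8.49, 9.08 and 8.37 in microgravity and 8.58, 8.44 and 8.31 on the ground, and they overlapped. With 1 array left out at a time CDC24 passed in 3 of 17 fits and MSB4 in 4 of 17.

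The polarity list had 25 of 28 averages above 0 with a median of 0.25, against 54.9% and 0.030 for all genes. Its positive share was 22 of 28 in FLO1, 22 of 28 in FLO8 and 21 of 28 in WT, against 51.4%, 51.8% and 58.9% of all genes. Its share of averages above 0 was the highest of the 6 lists. The lists were chosen with earlier results of these data known, so this is a description and was not tested. Of the 36 genes of actin patches and endocytosis 26 were above 0 (median 0.08) and 0 passed, with INP52, a lipid phosphatase, at 0.61 and ENT2, an epsin, at 0.39 (limma adjusted p = 0.0976 and 0.106). The septin and cytokinesis list had 8 of 19 above 0 and no call, and HSL1, a kinase at the septin ring, averaged −0.40 (limma adjusted p = 0.0891). Spindle pole and tubulin assembly genes had 14 of 22 above 0 and no call, and CIN2, a factor of tubulin folding, averaged −0.52 (limma adjusted p = 0.0925). No call was made among 21 dynein, dynactin and microtubule-associated genes or 10 genes of the DASH ring, the complex that couples kinetochores to microtubules.

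Between strains, BNR1 showed the lowest p among the members. It read 6.50, 6.79 and 5.84 in FLO8 microgravity, against 7.13, 7.75 and 7.15 in WT microgravity. On the ground it read 6.23, 6.40 and 6.26 in FLO8, against 6.99, 6.86 and 6.82 in WT. The FLO8 and WT arrays did not overlap in either condition. The difference was −0.96 in microgravity (SE 0.23, 1.95-fold lower in FLO8, limma adjusted p = 0.147) and −0.60 on the ground (SE 0.23, limma adjusted p = 0.998). Both SEs rest on 1 spread pooled over flight and ground. The SDs of BNR1 were 0.49 in FLO8 and 0.35 in WT in flight, and 0.09 in each on the ground. The pooled SE is thus too small for the flight difference and too large for the ground difference. Array weights called BNR1 on the ground, among 5 members and 11.8% of all genes. Averaged over both conditions, a comparison added after the data were seen, it was −0.78 (SE 0.16, 95% confidence interval −1.13 to −0.43, 1.72-fold lower, limma adjusted p = 0.0513). That average did not pass. With 1 array left out at a time it ran from −0.88 to −0.64 and passed in 1 of 12 fits, the one without FLO8 microgravity 2 (limma adjusted p 0.0185 to 0.151 over the 12). In FLO1, BNR1 levels of 6.85 and 6.91 in microgravity lay below those of WT, while the ground levels of 6.94, 6.82 and 6.43 overlapped WT.

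The same limma fits called 0 of 42 members in each of the 4 strain comparisons, where 0.0367% of genes passed in each. For most members the pooled SE is too large on the ground and too small in flight, so the absence of calls on the ground does not show equal levels. With an unadjusted p under 0.05 there were 0 members for FLO1 against WT on the ground (1.38% of genes), 2 in flight (7.76%), and for FLO8 against WT 2 on the ground (3.56%) and 5 in flight (9.98%). Members whose arrays did not overlap those of WT numbered 8 higher and 3 lower in FLO1 on the ground (11.2% and 7.73% of genes), and 2 higher and 2 lower in FLO1 in flight (6.86% and 7.6%). For FLO8 they were 6 higher and 4 lower on the ground (10.9% and 8.18%), and 3 higher and 1 lower in flight (3.91% and 5.14%). In the averages over both conditions 0 members passed, where 0.0367% of genes did for FLO1 and 0.44% for FLO8, and 2 and 5 members had an unadjusted p under 0.05 in limma (5.56% and 10.1% of genes). TUB4 was 0.49 higher in FLO8 than in WT on the ground (SE 0.17, limma adjusted p = 0.998), where the arrays did not overlap, and 0.17 higher in flight, where they did. CIN8 was 0.54 lower in FLO8 than in WT in flight (−0.54, SE 0.22) and 0.34 lower on the ground (−0.34, SE 0.22). LAS17 differed by 0.66 between FLO8 and WT in flight (SE 0.24, limma adjusted p = 0.386) and by −0.01 on the ground.

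**Figure D4:**
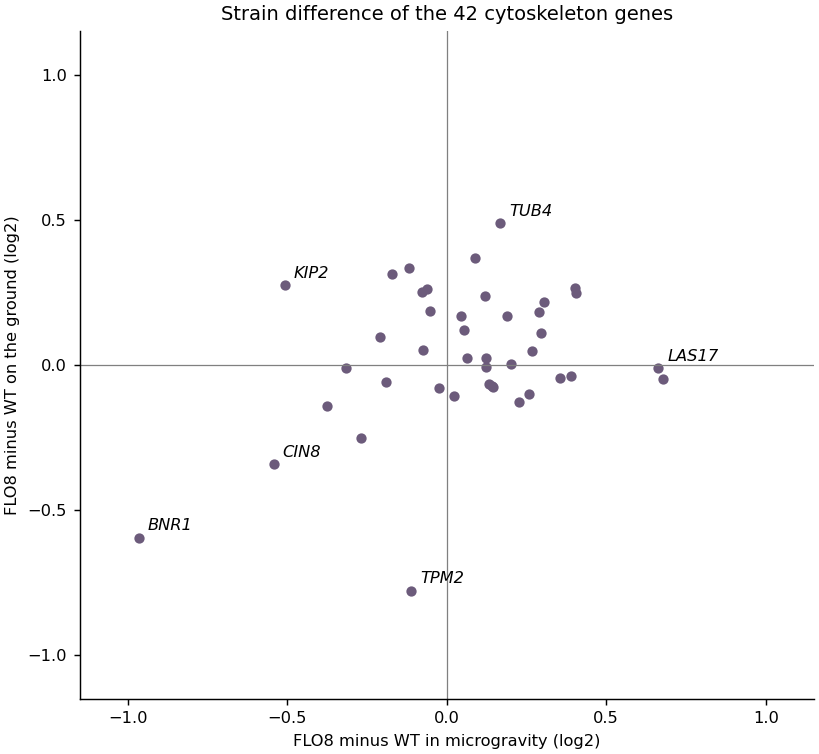
Difference between the FLO8 strain and WT (log2) in microgravity (horizontal axis) and on the ground (vertical axis) for the 42 genes, 6 of them named. BNR1 lies lowest on the horizontal axis at −0.96 and at −0.60 on the vertical axis, and LAS17 lies at 0.66 and −0.01.

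For FLO1 against WT the values were smaller on the ground. MYO3 read 10.04, 10.17 and 10.10 in FLO1 against 9.84, 9.72 and 9.78 in WT, without overlap. Its difference of 0.33 (SE 0.22) did not pass (limma adjusted p = 1.00). The SDs of MYO3 were 0.07 in FLO1 and 0.06 in WT on the ground, and 0.36 in each in flight. The SE pools both, so it is too large for this ground difference. In flight CDC11 was 0.63 lower in FLO1 than in WT (−0.63, SE 0.22, limma adjusted p = 0.495). CDC11 read 8.73 and 9.67 in FLO1 microgravity, against 9.74, 9.80 and 9.95 in WT microgravity. The difference was −0.16 without FLO1 microgravity 1 and −1.10 without FLO1 microgravity 2, where it passed (limma adjusted p = 0.00592). MYO2 read 11.33 and 10.70 in FLO1 microgravity, against 10.38, 10.50 and 10.71 in WT microgravity, and its difference of 0.49 did not pass (limma adjusted p = 0.597). Neither interaction, the flight difference of FLO1 or of FLO8 minus that of WT, called any of the 42 genes or any gene at all in limma (0.0% of genes), and 0 members had an unadjusted p under 0.05 in either, against 3.51% and 2.95% of genes.

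Flight arrays of a strain differed from each other more than its ground arrays did. The pooled SD within groups had a median over the members of 0.333 in microgravity and 0.146 on the ground, and was higher in microgravity for 41 of 42 genes, all but COF1. The median ratio was 2.04 for the members and 2.21 for all genes, of which 92.8% had a ratio above 1, so the wider flight spread was shared with the array as a whole. The 7 highest ratios among the members were 8.33 for DYN1, 7.88 for MYO4, 5.68 for MYO5, 5.41 for ARC19, 4.89 for CDC11, 4.65 for KAR3 and 4.62 for SAC6.

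FLO1 microgravity 1 had the highest number of members with large deviations: 15 members lay more than 0.5 log2 below the ground mean of the strain and 6 above it, where 18.8% and 19.7% of genes did so. The second FLO1 flight array had 0 below and 2 above, against 5.51% and 6.07% of genes. FLO8 microgravity 1 had 0 below and 1 above (6.99% and 3.41% of genes). The other flight arrays had between 0 and 6 below (8.7% to 19.4% of genes) and between 3 and 8 above (6.48% to 27.1%). Over all genes FLO8 microgravity 2 deviated most, with 19.4% below and 27.1% above, where 3 and 8 members did so. On FLO1 microgravity 1 the low genes included 4 of 5 septins, with CDC3 at 7.86, CDC10 at 8.92, CDC11 at 8.73 and SHS1 at 8.95, while CDC12 read 7.75, above its ground arrays at 7.38, 7.32 and 7.25.

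A set of 4 genes, chosen after their values were seen, departed on the same 3 flight arrays, WT 3, FLO1 1 and FLO8 2. DYN1 read 9.74 on FLO1 microgravity 1, 9.08 on FLO8 microgravity 2 and 9.65 on WT microgravity 3, and between 10.67 and 11.41 on the other 5 flight arrays. SAC6 read 11.29, 11.69 and 11.90 on these 3 arrays and between 12.77 and 13.04 on the others. In the opposite direction, ARC19 read 12.10, 12.31 and 11.91 on them and between 11.02 and 11.40 on the others. KAR3 read 8.49, 8.95 and 9.15 on them and between 7.45 and 7.98 on the others. These are 3 of the 4 arrays that stand apart. The DYN1 average of −0.40 turned to 0.30 without the 4 arrays that stand apart and then passed (limma adjusted p = 0.0302), so its sign depends on which arrays are kept. The part of RNA quality and of these arrays in the result was not tested.

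Leaving the 4 arrays out of the average flight comparison leaves 1 flight array in FLO1 and in FLO8, whose spread is then borrowed from the remaining groups. In that fit 7 of 42 members passed (16.7%), against 18.7% of all genes: STU2, TUB4, CAP2 (0.33), MYO3 (0.58), KIP3 (0.25), KIP2 (0.48) and DYN1 (0.30). The sign of the average turned for 13 of 42 members (31.0%), against 27.9% of all genes: ACT1, SAC6, TPM1, TPM2, ARP3, ARC19, ARC40, ABP1, MYO4, CDC12, KAR3, DYN1 and BIK1.

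**Figure D5:**
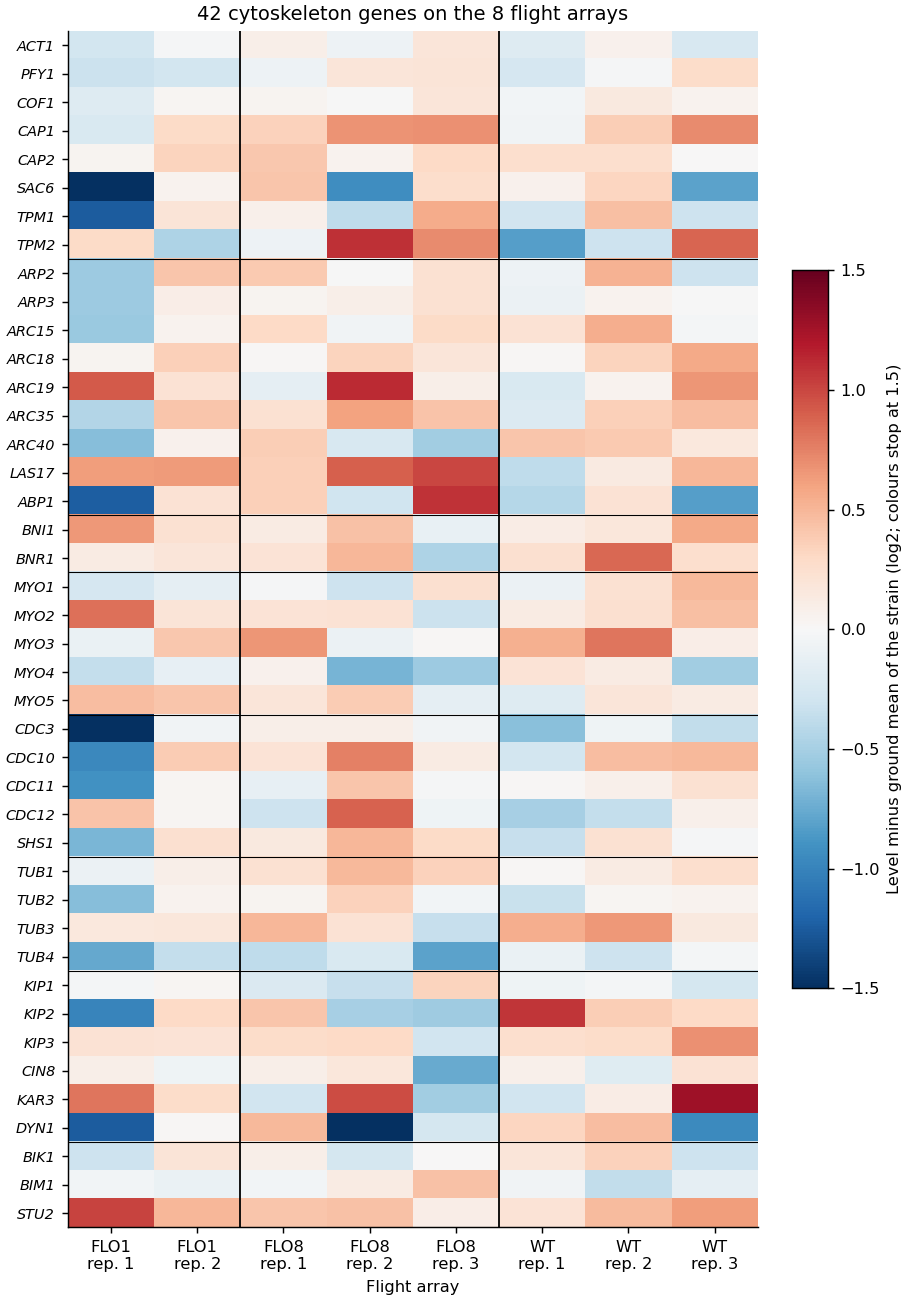
Level of each of the 42 genes (rows, by role) on the 8 flight arrays (columns) minus the ground mean of its strain (log2; red higher in flight, blue lower; colours stop at 1.5). FLO1 microgravity 1 shows the most blue cells, 15 of them below −0.5, and STU2 is above the ground mean on all 8 arrays.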

How the data were processed

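The deposited table holds log2 probe set levels of 17 arrays; the submitters' processing notes name RMA, affy 1.26.1 and MAS5, and the role of MAS5 is not stated. No scanner files were used, and no further normalization was applied. Of 10928 probe sets, 7244 carry 1 gene symbol and 5498 are annotated to S. cerevisiae; 12 symbols were updated through RefSeq. For the 47 genes with several probe sets, the one with the highest mean was kept, leaving 5449 genes. The background level is the 95th percentile of the means of 1746 S. pombe probe sets. Groups were taken from the sample titles.

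A model of the 6 group means over all 17 arrays was fitted with limma 3.58.1 in R 4.3.3 (11 residual degrees of freedom) and moderated by eBayes. Two-sided p-values were adjusted by Benjamini-Hochberg over all 5449 genes within each of 12 comparisons; a gene was called at an adjusted p under 0.05. The number of arrays limits the precision. Alternatives were other normalizations, probe set rules, variance models, array weights, a filter on dim probe sets, a replicate block, an RNA quality covariate from 7 control genes, and arrays left out. Values on every array are printed for ACT1, called members, the 3 members with the lowest p in each flight comparison and the 2 with the lowest p in each strain comparison and interaction; related pairs and a few others are described besides, and neighbouring lists show called genes or up to 2 with the lowest p. Members and lists were chosen with earlier results of these data known. Deviations from group means were correlated between flight and ground arrays of the same strain and replicate number, and ran from −0.38 to 0.35. Arrays with unlike numbers were not compared, so these values do not settle whether replicate numbers pair flight with ground arrays.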

Additional observations from a re-analysis of the deposited data

Results flagged for a closer look

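MYO5, a type I myosin of endocytic patches, was higher on both FLO1 microgravity arrays than on all WT microgravity arrays and lower on all FLO1 ground arrays than on all WT ground arrays. The difference between FLO1 and WT was 0.30 log2 in microgravity and −0.10 on the ground, so the opposite signs differ by 0.40 (SE 0.22). The difference itself was tested as an interaction in limma and did not pass (adjusted p = 0.994).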

How the results depend on the processing

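None of the 28 gene results followed through every alternative changed sign. They were picked for the lowest p in their comparison or as called genes of the neighbouring lists, so their stable signs are no separate support. Among the 42 average flight differences, 13 turned sign without the 4 arrays that stand apart, as listed above. The replicate block is given here because pairing by replicate number was not settled. It left 1 member called in the average flight comparison (LAS17, limma adjusted p = 0.0217, with STU2 at 0.0548 and TUB4 at 0.0626). It also left 1 called in FLO8 against WT averaged over conditions (BNR1). That comparison had 0 members called in the model without the block, 1 under median centring, 1 under quantile normalization and 6 under array weights (10.3% of all genes). The average flight count, 2 members, was 1 with a variance trend and robust fit, 4 under array weights (14.2% of all genes), 0 with the 3′ to 5′ covariate and 7 without the 4 arrays (18.7%). Array weights gave 2 calls in WT flight (11.0% of all genes), 4 in FLO8 flight (13.7%), 2 in FLO1 against WT on the ground (9.19%) and 5 in FLO8 against WT on the ground (11.8%), and WT flight had 1 without the 4 arrays (8.52%). The FLO1 flight median was 0.201 with the covariate and 0.175 without the 4 arrays, and the median of the FLO1 interaction was 0.0559 and 0.0754. With 1 array left out in turn, counts ranged from 0 to 4 in FLO1 flight, 0 to 4 in the average, 0 to 3 in FLO1 against WT in flight, 0 to 2 in the FLO1 interaction, 0 to 2 in FLO1 against WT averaged and 0 to 1 in FLO8 against WT averaged. Medians ranged from −0.239 to 0.175 in FLO1 flight and from −0.325 to 0.0558 in the FLO1 interaction; the extremes in FLO1 come from leaving out 1 of its 2 flight arrays. STU2 passed in 7 of 9 other settings (adjusted p 0.0262 to 0.628) and TUB4 in 6 of 9 (0.0179 to 0.692), all p-values from limma. CDC24 passed in 4 of 9 and MSB4 in 5 of 9. Not all of these settings could move these genes. The filter on dim probe sets and the probe set rule left their differences unchanged. The fit without the 4 arrays is also counted among the 9 and is no independent check. The counts of settings passed therefore overstate how stable the calls are. Few arrays per group limit what could be detected.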
